A study of Mus musculus with 3 samples.

Results

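Glutathione, thioredoxin and antioxidant genes are described here in mouse blastocysts, as 44 genes chosen by symbol out of 24063 genes of the count table. All 44 symbols were found, and they fall into 11 groups by role, from the enzymes that remove superoxide to the ferritins that store iron. Of the 44 members, 43 had enough counts to be tested, and the membrane-bound transferase Mgst1 had no count in any library and was not tested.

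The data were 3 low-input RNA-Seq libraries of untreated blastocysts, 1 from C57BL/6 (B6) and 2 from non-obese diabetic (NOD) mice, the inbred strain that develops autoimmune diabetes spontaneously. The comparison asks which genes already differ between the diabetes-prone and the healthy strain before implantation. The labels name blastocysts as the input, whereas the methods of the study describe single inner cell masses (ICM). They give neither age, sex, number of embryos nor the B6 substrain. With only 1 library of B6, effects of strain and of library preparation cannot be told apart.

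Superoxide and hydrogen peroxide are by-products of respiration and of protein folding. Superoxide dismutases turn superoxide into hydrogen peroxide, which catalase, the glutathione peroxidases and the peroxiredoxins reduce to water, and the last 2 kinds of enzyme are returned to their active state by glutathione and by thioredoxin, which glutathione reductase and the thioredoxin reductases recharge with NADPH. The transcription factor Nrf2 (gene Nfe2l2), held in check by Keap1, is known to drive many of these genes, and pre-implantation embryos are known to be sensitive to oxygen in culture.

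Several of these enzymes carry selenocysteine at the active site, which is encoded by the triplet TGA that otherwise ends a protein. The stretches of coding sequence around the active site are shown for the 5 glutathione peroxidase members, because the members differ in this codon. The sequences are from GENCODE M21 transcripts (GRCm38) in the direction of transcription, with the active-site codon in capitals.
Gpx1, codon 47: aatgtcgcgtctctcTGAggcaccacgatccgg
Gpx3, codon 73: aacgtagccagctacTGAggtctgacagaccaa
Gpx4, codon 73: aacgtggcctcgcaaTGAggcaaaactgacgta
Gpx7, codon 56: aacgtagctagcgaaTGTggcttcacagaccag
Gpx8, codon 79: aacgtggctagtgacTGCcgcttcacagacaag
Gpx1, Gpx3 and Gpx4 hold TGA in frame, and Gpx7 and Gpx8 hold TGT and TGC, which encode cysteine. The thioredoxin reductases carry the same TGA as the last codon but 1 before the stop codon, shown here with the end of each coding sequence.
Txnrd1, codon 498 of 499: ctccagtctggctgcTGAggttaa
Txnrd2, codon 526 of 527: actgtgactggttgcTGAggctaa

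The B6 library held 12505685 counts on genes, against 33891715 for NOD 1 and 36171013 for NOD 2, and the latter were thus 2.71 and 2.89 times as deep. A single count was worth 0.0734 CPM (counts scaled to library size, after edgeR's TMM factors) in B6 and 0.0303 and 0.0294 CPM in the NOD libraries. The 9 trophectoderm markers summed to 3042 CPM in B6 and to 1737 and 1606 CPM in NOD, with Elf5 at 0 in B6 and none called. The 8 ICM markers, all with counts in every library, summed to 449 CPM in B6 and to 586 and 856 CPM in NOD, but did not go 1 way, with Tdgf1 and Zfp42 called higher in NOD and Sox2 called lower (49.8 CPM against 5.75 and 9.61 CPM). The 6 primitive endoderm markers summed to 443, 185 and 220 CPM, with Gata6 called lower (385 CPM against 91.5 and 130 CPM), Pdgfra called higher (5.51 CPM against 23.6 and 24.6 CPM), Sox17 at 0 in B6 and NOD 1, and Sox7 at 0 in NOD 2. The 7 leukocyte and the 6 erythrocyte markers summed to at most 1.03 and 1.71 CPM in any library, with Ptprc and Lyz2 at 0 throughout. The 7 cumulus and granulosa cell markers summed to 5.51, 8.44 and 19.8 CPM, nearly all of it Amhr2, with Has2, Ptx3, Fshr and Inhba at 0 throughout, and the 6 uterine epithelium markers summed to 0.514, 8.56 and 4.32 CPM, most of it Muc1, with Ltf and Lcn2 at 0 throughout and Pgr at 38 counts in NOD 2 alone. In these bulk libraries fewer cells of a type and less RNA per cell cannot be told apart, and the part of the marker shifts in the results below was not tested.

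Of the 43 members tested, 7 were higher in NOD (Sod2, Gpx7, Prdx3, Prdx4, Prdx6, Glrx and Glrx5) and 4 were lower (Sod1, Gpx3, Glrx3 and Gsto1) by edgeR's quasi-likelihood test (adjusted p below 0.05 and a change of 2-fold or more). This is 16.3% and 9.30% of the members, against 10.3% of all 14456 genes tested that were called higher and 7.39% that were called lower, so that the share of members that differed was of the same order as that of genes at large. With total counts as the only scaling, 1 member (Prdx3) was called higher and 6 lower, against 7.17% and 7.83% of all genes. The members' median log2 fold change was 0.42, against 0.26 over all genes tested, and that median of all genes moved to 0.07 with total counts only. Both NOD libraries lay above B6 for 23 of the 43 members and below it for 16, which is 53.5% and 37.2%, against 45.3% and 39.4% of all genes tested. With a single B6 library, 84.7% of all genes had both NOD libraries on 1 side of it, so that a lack of overlap sets a member apart from few genes. The p-values weigh the spread between the 2 NOD libraries (1 residual degree of freedom) with a spread pooled over all genes (3.78 prior degrees of freedom). The labels do not tie the NOD libraries to separate animals, and the test takes B6 to vary as much as NOD.

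**Figure D1:**
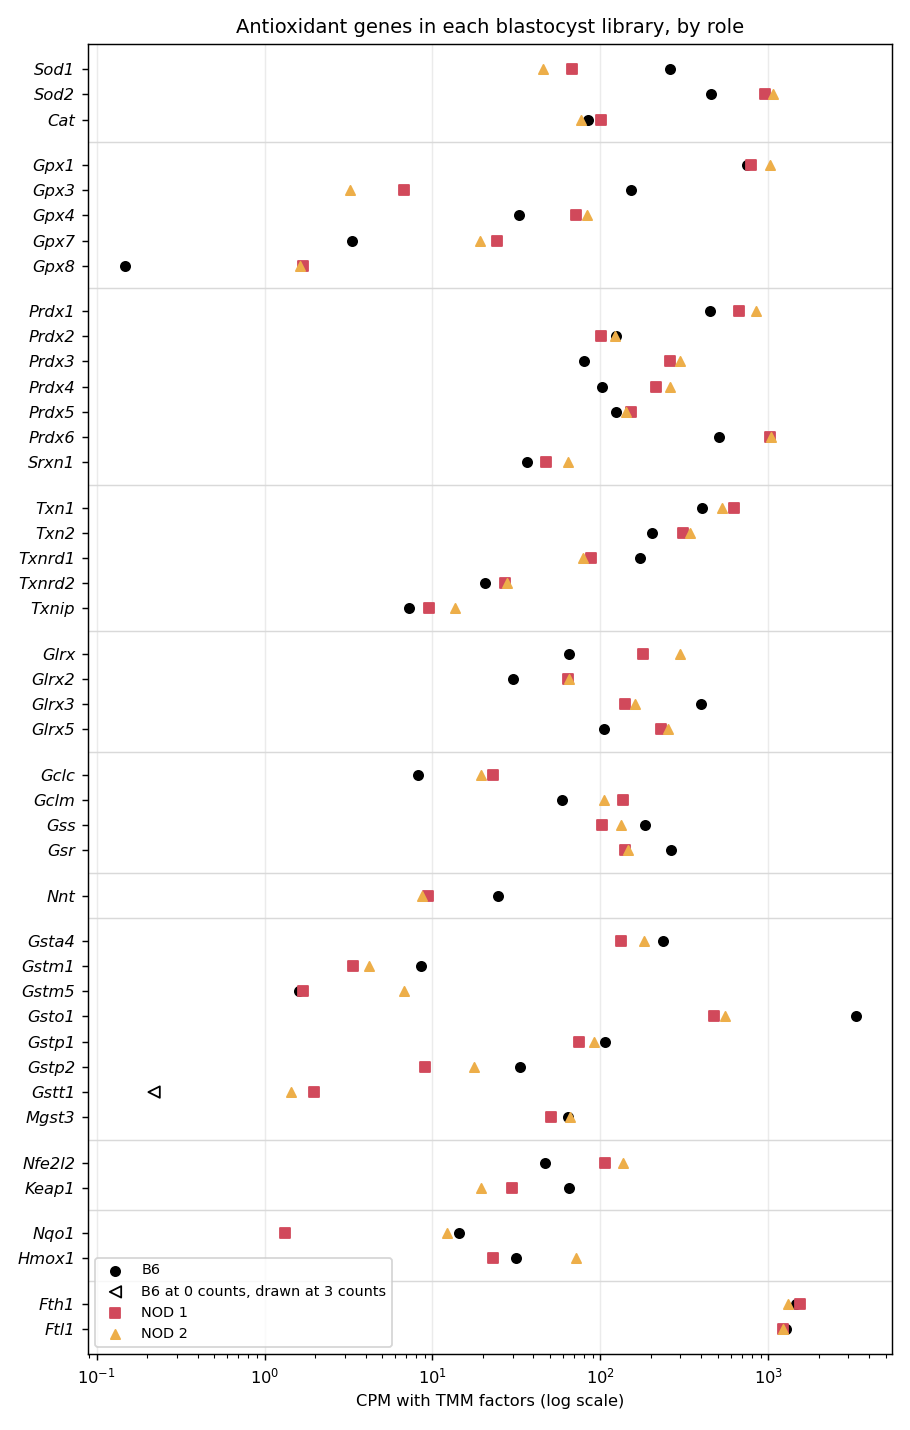
CPM with TMM factors, on a log scale, of the 43 members tested in the B6 library (circles), NOD 1 (squares) and NOD 2 (triangles), with lines between the role groups; the open triangle is Gstt1, which had 0 counts in B6 and is drawn at the 0.220 CPM of 3 counts. Gsto1 has the highest point, 3329 CPM in B6, and both NOD libraries lie well below it at 477.5 and 551.9 CPM.

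The superoxide dismutases went opposite ways. Sod1 (NM_011434, mm10 chr16:90220742-90226324), the copper-zinc enzyme of the cytosol, had 261 CPM in B6 and 67.8 and 45.6 CPM in the NOD libraries. Both NOD libraries were low, and Sod1 fell by 2.20 on the log2 scale (SE 0.33, adjusted p = 0.0257), or 4.60-fold in mean CPM. Sod2 (NM_013671, chr17:13007839-13018119), the manganese enzyme of mitochondria, had 459 CPM in B6 against 954 and 1064 CPM in NOD, and was 2.20-fold higher in mean CPM (log2 fold change 1.14, SE 0.21, adjusted p = 0.0347). Cat, the catalase of peroxisomes, had 84.6 CPM in B6 and 101 and 76.9 CPM in NOD, so that B6 lay between the NOD libraries (log2 fold change 0.07, SE 0.33, adjusted p = 0.882). Per length, Sod1 made up 77.2% of the FPKM of the dismutase pair in B6 and 29.7% and 20.3% in NOD. Of the 50-base words of the Sod1 transcript, 23.1% also occur in 1 other gene model, Gm8566, and how its reads were shared out was not tested.

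The glutathione peroxidases held both the deepest fall and 1 of the largest rises among the members. Gpx3 (NM_008161, chr11:54902854-54910382), the secreted selenium enzyme, had 153 CPM in B6 and 6.78 and 3.23 CPM in NOD. Its fall of 4.93 on the log2 scale (SE 0.54, adjusted p = 0.0203) is 30.6-fold in mean CPM, and the lower of the NOD libraries was itself 2.10-fold below the other. Gpx7 (NM_024198, chr4:108400217-108406713), a cysteine enzyme of the endoplasmic reticulum that passes oxidising equivalents to protein folding, had 45 counts in B6 and 797 and 656 in NOD. These are 3.30 CPM against 24.1 and 19.3 CPM, and 6.57-fold in mean CPM (log2 fold change 2.71, SE 0.56, adjusted p = 0.0402).

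Gpx8, the other cysteine member and likewise of the endoplasmic reticulum, had 2 counts in B6 and 56 and 55 in NOD. Its ratio of NOD to B6 was 11.3 after library size, with an exact Clopper-Pearson 95% interval of 3.05 to 94.2 that covers counting error only, and it did not pass the test (adjusted p = 0.180). Both cysteine members thus had more reads per library size in each NOD library than in B6, although the gene Gpx8 was barely detected in the shallower library. Gpx1, the general cytosolic enzyme and the most abundant of the group, had 750 CPM in B6 and 792 and 1025 CPM in NOD (log2 fold change 0.28, SE 0.24, adjusted p = 0.421). Gpx4, which reduces lipid peroxides in membranes, had 32.7 CPM in B6 and 71.8 and 82.9 CPM in NOD (log2 fold change 1.24, SE 0.35, adjusted p = 0.0720). Both NOD values of Gpx4 lay above B6, but the difference missed the threshold. Of the words of its transcript, 68.9% also occur in other gene models, among them Gpx4-ps2. Of the 3 members with TGA, Gpx3 alone passed edgeR's test, Gpx4 was called higher by 2 of the 8 alternative tests, DESeq2 among them, and the difference between the 2 kinds of member was not tested.

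Among the 6 peroxiredoxins and sulfiredoxin, 3 rose and none was called lower, against 10.3% and 7.39% of all genes, and with total counts only Prdx3 alone of these was called. Prdx3 (NM_007452, chr19:60864066-60874538), the peroxiredoxin of mitochondria, had 79.5 CPM in B6 and 259 and 299 CPM in NOD, a 3.51-fold rise in mean CPM (log2 fold change 1.81, SE 0.27, adjusted p = 0.0253). Prdx4 (NM_016764, chrX:155323920-155338454), the peroxiredoxin of the endoplasmic reticulum, had 102 CPM against 214 and 260 CPM (log2 fold change 1.21, SE 0.28, adjusted p = 0.0474). Prdx6 (NM_007453, chr1:161240112-161251166), the 1-cysteine enzyme that also acts on phospholipids, had 513 CPM against 1022 and 1034 CPM, 2.01-fold in mean CPM (log2 fold change 1.004, SE 0.20, adjusted p = 0.0375). The NOD libraries were close together and above B6 for all 3 genes. Prdx6 lies at the edge of the 2-fold threshold, and it was called by 2 of the 8 alternative tests.

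The other peroxiredoxins did not pass. Prdx1, the main cytosolic peroxiredoxin, had 453 CPM in B6 and 669 and 841 CPM in NOD (log2 fold change 0.74, adjusted p = 0.0944), Prdx2, the other cytosolic one, had 125 CPM against 101 and 123 CPM, and Prdx5 had 124 CPM against 152 and 143 CPM. Srxn1, which reactivates over-oxidised peroxiredoxins, had 36.7 CPM in B6 and 47.7 and 64.3 CPM in NOD (adjusted p = 0.295). Only Prdx2 of the 7 genes had lower values in both NOD libraries. Per length Prdx1 was the most abundant member of the family in every library, with 31.6% of its summed FPKM in B6 and 28.9% and 32.1% in NOD, whereas Prdx2 made up 13.1% in B6 and 6.54% and 7.08% in NOD.

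No gene of the thioredoxin system passed edgeR's test. Of the 5, 2 had an unadjusted p under 0.05, as had 5763 of all 14456 genes tested. DESeq2 called 1 of the 5, against 28.7% of all genes. Txn1, the cytosolic thioredoxin, had 406 CPM in B6 and 628 and 530 CPM in NOD, and Txn2, its mitochondrial form, had 203 CPM against 311 and 344 CPM (adjusted p = 0.167 and 0.0992). Txnip, which binds and inhibits thioredoxin, had 7.27 CPM in B6 and 9.50 and 13.6 CPM in NOD (adjusted p = 0.427). The reductases lay on either side of B6. Txnrd1, the cytosolic thioredoxin reductase, had 173 CPM in B6 and 87.7 and 78.9 CPM in NOD (log2 fold change -1.06, SE 0.27, adjusted p = 0.0575). It was called lower by 4 of the 8 alternative tests. Txnrd2, the reductase of mitochondria, had 20.5 CPM against 27.2 and 27.8 CPM (adjusted p = 0.450).

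All 4 glutaredoxins, which use glutathione to reduce disulphides or carry iron-sulphur clusters, had both NOD libraries on 1 side of B6, as did 84.7% of all genes. Glrx (NM_053108, chr13:75839886-75850151), the cytosolic dithiol form, had 65.3 CPM in B6 and 180 and 300 CPM in NOD (log2 fold change 1.88, SE 0.41, adjusted p = 0.0446). Glrx5 (NM_028419, chr12:105032689-105040910), which hands iron-sulphur clusters on in mitochondria, had 106 CPM in B6 and 230 and 252 CPM in NOD (log2 fold change 1.19, SE 0.25, adjusted p = 0.0426). Both rose in NOD, and Glrx2, the mitochondrial dithiol form, had 30.0 CPM against 64.1 and 65.3 CPM without passing the test (adjusted p = 0.0892), although 2 of the 8 alternative tests called it.

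Glrx3 (NM_023140, chr7:137437648-137468594), the cytosolic monothiol form that delivers iron-sulphur clusters, went the other way. It had 397 CPM in B6 and 140 and 160 CPM in NOD, a fall of 1.40 on the log2 scale (SE 0.23, adjusted p = 0.0290). Of its transcript's words, 45.4% also occur in Gm12669, a gene model that overlaps it on the same strand, so that the counts of the pair are uncertain. Glrx3 made up 58.5% of the summed FPKM of the 4 glutaredoxins in B6 and 17.5% and 15.9% in NOD, where Glrx5 led with 50.9% and 44.3%.

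**Figure D2:**
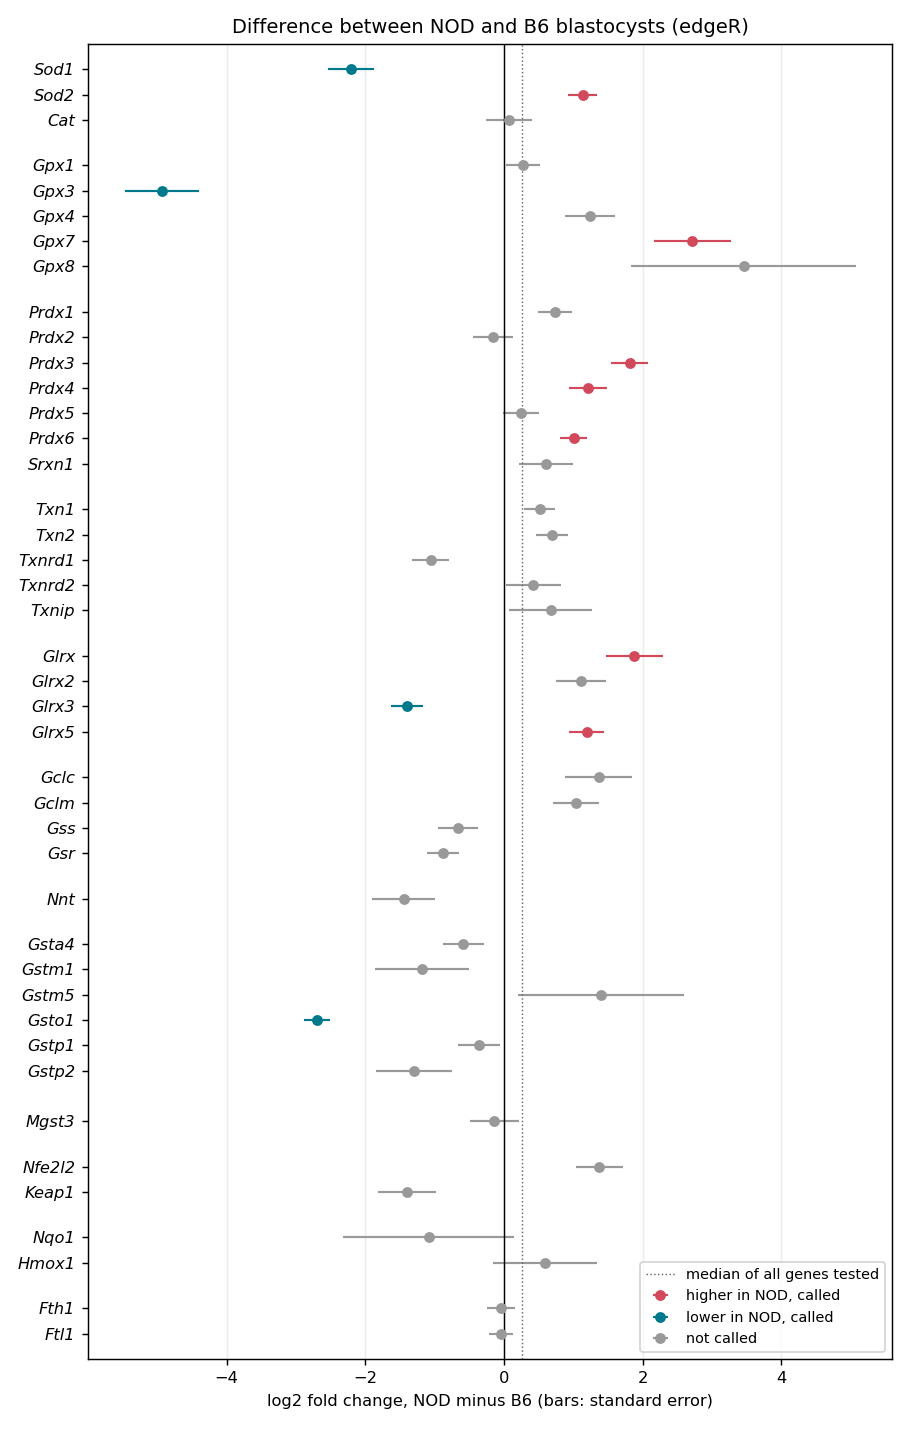
Log2 fold change, NOD minus B6, of 42 members with its standard error as bars; Gstt1 is left out because its B6 count was 0 and its fitted value is no bound, the 7 genes called higher and 4 called lower are coloured, and the dotted line is the 0.26 median of all genes tested. The falls of Gpx3 and Gsto1 lie farthest to the left, and Gpx8, with 2 counts in B6, has the widest bar.

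The enzymes that make and recycle glutathione divided into a pair with higher and a pair with lower NOD values. None passed edgeR's test or was called by DESeq2. Of the 4, 3 had an unadjusted p under 0.05 by edgeR, as had 5763 of all 14456 genes tested. By DESeq2, Gclm and Gsr had adjusted p of 0.0302 and 0.0161 but changes under 2-fold (log2 fold change 0.9952 and -0.9165). Gclc, the catalytic subunit of the rate-limiting glutamate-cysteine ligase, had 8.22 CPM in B6 and 22.8 and 19.5 CPM in NOD (log2 fold change 1.36, adjusted p = 0.110), and its modifier subunit Gclm had 58.9 CPM against 136 and 106 CPM (log2 fold change 1.03, adjusted p = 0.0889). Gss, which completes glutathione, had 186 CPM in B6 and 102 and 133 CPM in NOD (log2 fold change -0.66, adjusted p = 0.160). Gsr, which reduces oxidised glutathione, had 264 CPM against 141 and 147 CPM (log2 fold change -0.88, adjusted p = 0.0617). The groups did not overlap for any of the 4 genes, and 1 of the 8 alternative tests each called Gclm higher (the 1 CPM filter) and Gsr lower (total counts only). The first 2 genes lay above B6 and the last 2 below it, and a lack of overlap is the case for 84.7% of all genes.

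Nnt, the transhydrogenase of the inner mitochondrial membrane that makes NADPH from NADH, had 337 counts in B6 and 310 and 297 in the deeper NOD libraries. This is 24.7 CPM against 9.38 and 8.73 CPM, so that B6 was 2.73-fold above the NOD mean, and the difference missed the threshold (log2 fold change -1.45, SE 0.46, adjusted p = 0.0869), with a call by 1 of the 8 alternative tests, the filter of 1 CPM in every library. C57BL/6J, the source of the reference genome, is known to lack part of this gene, and other C57BL/6 substrains carry it whole. The counts are per gene and not per exon, so that whether the B6 library carries the full gene was not tested. Reads from the part that the reference lacks cannot be placed on it, for NOD as for B6. What this does to the Nnt counts was not tested.

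The transferases, which join glutathione to other compounds, were led by Gsto1 (NM_010362, chr19:47854989-47864788), the omega-class enzyme that reduces glutathionylated proteins and dehydroascorbate. Gsto1 had 45365 counts in B6, which is 0.363% of all counts on genes and the highest FPKM of any member in that library, and 0.0466% and 0.0519% of the counts in the NOD libraries. In CPM these are 3329 against 477.5 and 551.9, and the fall of 2.69 on the log2 scale (SE 0.19, adjusted p = 0.0190) is 6.47-fold in mean CPM. All 44 members together took 1.29% of the counts in B6 and 0.9996% and 1.03% in NOD, and without Gsto1 they took 0.923%, 0.953% and 0.981%. The members other than Gsto1 thus held nearly the same share of each library.

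No other transferase passed the test. Gsta4, the alpha-class enzyme that detoxifies the lipid aldehyde 4-hydroxynonenal, had 237 CPM in B6 and 132 and 183 CPM in NOD (adjusted p = 0.203), Mgst3, a membrane-bound enzyme, had 64.5 CPM against 51.0 and 66.2 CPM, and the mu-class Gstm1 had 8.59 CPM against 3.36 and 4.20 CPM (adjusted p = 0.251). The mu-class Gstm5 had 1.62 CPM in B6, 1.69 CPM in NOD 1 and 6.82 CPM in NOD 2, so that the higher NOD mean came from 1 library. Gstt1, of the theta class, had 0 counts in B6 and 65 and 49 in NOD, or 1.97 and 1.44 CPM. Against the floor of 3 counts in the B6 library, 0.220 CPM, its NOD mean was at least 7.74-fold higher, and it did not pass the test (adjusted p = 0.0752). Setting Gstt1 at this bound left the members' median at 0.42, and the same treatment of the 1618 genes at 0 in B6 moved the median of all genes tested to 0.23.

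The pi-class pair Gstp1 and Gstp2 lies side by side on chromosome 19 and is shown because reads of 50 bases can hardly tell the pair apart. Over 633 coding bases the copies differ at 12, which is 98.1% identity, with 303 bases in 1 identical run. The first 90 coding bases hold 6 of the 12 differences, given in capitals.
Gstp1: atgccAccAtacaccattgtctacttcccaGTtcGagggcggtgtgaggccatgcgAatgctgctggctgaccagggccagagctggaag
Gstp2: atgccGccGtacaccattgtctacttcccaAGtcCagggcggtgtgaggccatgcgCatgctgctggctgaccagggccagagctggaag
Of the 50-base words of the transcripts, 62.3% of those of Gstp1 and 72.6% of those of Gstp2 also occur in another gene, and the counts of both are uncertain for that reason. Gstp1 had 107 CPM in B6 and 74.9 and 91.4 CPM in NOD, and Gstp2 had 33.2 CPM against 9.08 and 17.8 CPM. Both NOD libraries lay below B6 for each gene, and neither passed the test (adjusted p = 0.402 and 0.149).

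**Figure D3:**
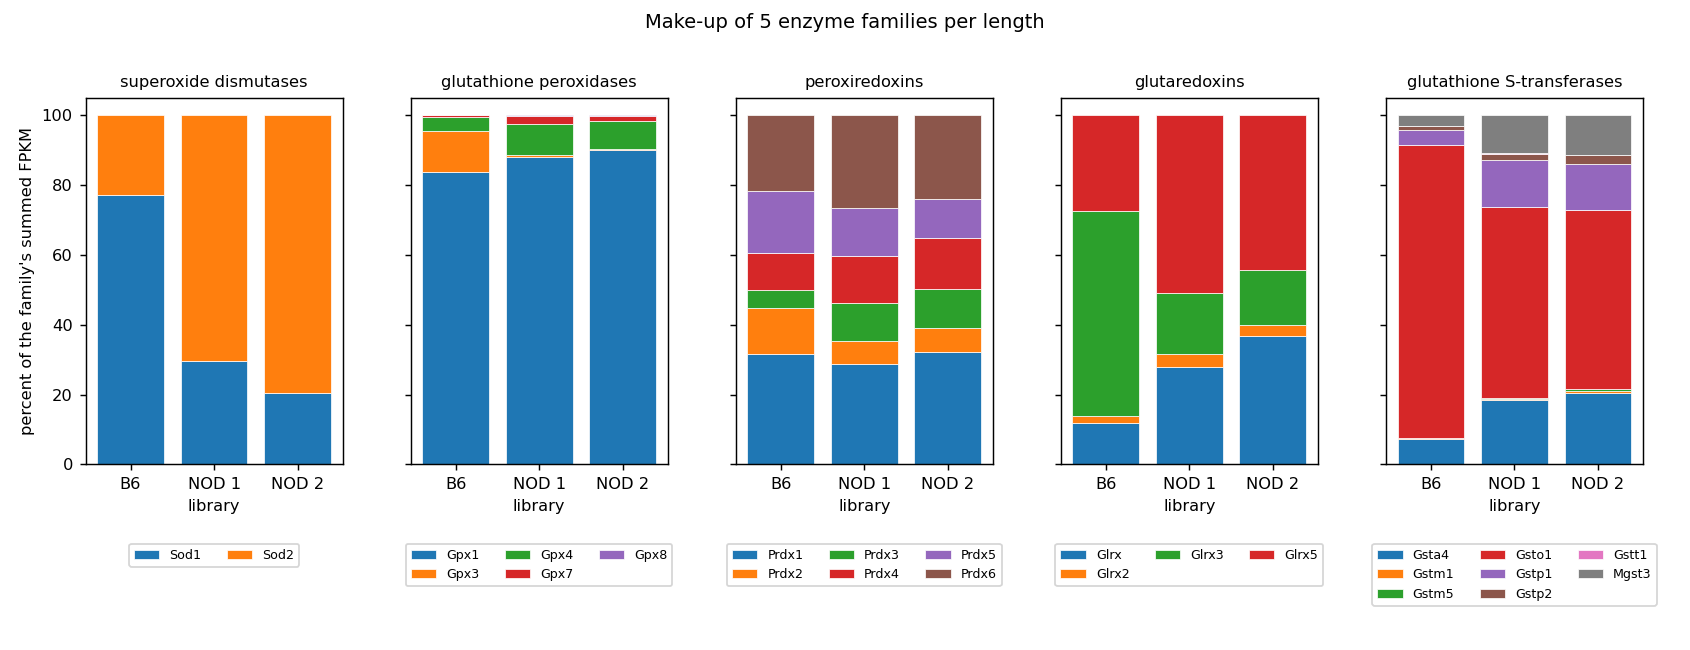
Stacked bars of each member's percent of its family's summed FPKM (counts scaled to library size and to the listed gene length) in B6, NOD 1 and NOD 2, for 5 families. Sod1 gives way to Sod2 (77.2% against 29.7% and 20.3% for Sod1), Glrx3 to Glrx5 and Glrx, and Gsto1 drops from 84.0% to 54.9% and 51.1%, whereas Gpx1 leads its family in all 3 libraries.

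The regulators of this programme were Nfe2l2 and Keap1. Nfe2l2 had 47.1 CPM in B6 and 107 and 137 CPM in NOD (log2 fold change 1.37, SE 0.34, adjusted p = 0.0548). Keap1 had 64.7 CPM in B6 and 29.6 and 19.4 CPM in NOD (log2 fold change -1.40, SE 0.42, adjusted p = 0.0769). For each gene both NOD libraries lay on 1 side of B6, as was the case for 84.7% of all genes. Neither passed edgeR's test. Of the 8 alternative tests, 3 called Nfe2l2 and 2 called Keap1, with adjusted p of up to 0.130 and 0.132, and both were among the 28.7% of genes called by DESeq2. Within a library, which removes any scaling, the FPKM of Nfe2l2 was 1.32 times that of Keap1 in B6 and 6.53 and 12.8 times in NOD.

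Of the 2 members grouped as oxidoreductases that Nrf2 is known to control, neither differed between the strains beyond the spread of the NOD libraries. Among the 28 other regulators and targets of Nrf2 tested outside the members, 3 were called higher and 1 lower, against 10.3% and 7.39% of all genes. Nqo1, a quinone reductase, had 197 counts in B6 and 44 and 418 in NOD, or 14.5 CPM against 1.33 and 12.3 CPM, and Hmox1, which breaks down haem, had 31.5 CPM against 22.9 and 72.0 CPM. The NOD libraries differed 9.23-fold from each other for Nqo1, 3.15-fold for Hmox1 and 4.02-fold for Gstm5, each higher in NOD 2. Of 13352 genes with counts in both NOD libraries, 3.33% differed at least as much as Nqo1, 7.999% as much as Gstm5 and 10.6% as much as Hmox1. Of the 43 members, 4 differed at least 2-fold between the NOD libraries (9.30%, against 21.7% of all genes), the fourth being Gpx3, and the members' median difference was 1.22-fold against 1.35-fold.

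**Figure D4:**
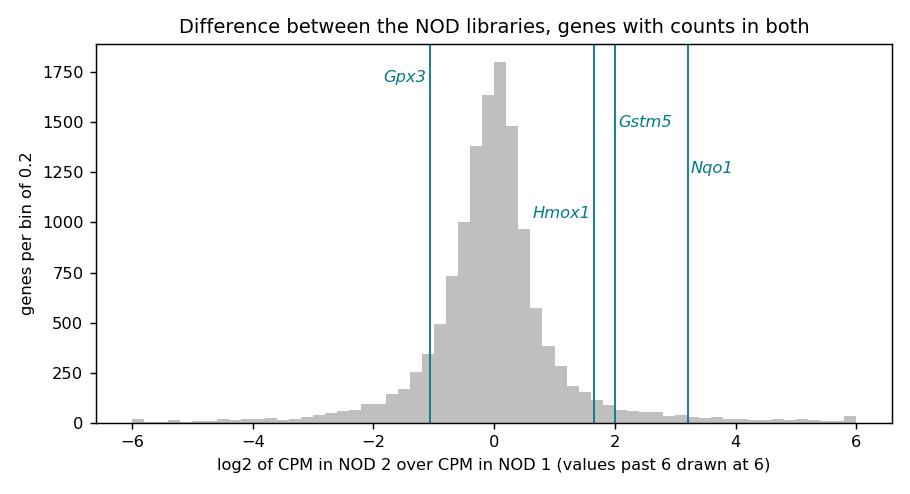
Histogram, over 13352 genes with counts in both NOD libraries, of the log2 ratio of CPM in NOD 2 to NOD 1, with lines at the 4 members that differ at least 2-fold. Nqo1, Gstm5 and Hmox1 lie to the right, higher in NOD 2, and Gpx3 to the left, higher in NOD 1.

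Fth1 and Ftl1, the heavy and light chains of ferritin, which stores iron and so keeps it from forming radicals, were close to level with TMM scaling. Fth1 had 1469 CPM in B6 and 1540 and 1310 CPM in NOD (log2 fold change -0.04, SE 0.20), and Ftl1 had 1270 CPM against 1228 and 1233 CPM (log2 fold change -0.05, SE 0.18). Neither differed beyond its standard error. With total counts only their log2 fold changes were -0.23 and -0.23, without passing the test. By FPKM they were the 2 highest members in the NOD mean and came next after Gsto1 in B6. Of the words of the Ftl1 transcript, 90.6% also occur in other gene models, mostly pseudogenes, so that its level is uncertain.

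Per length, 19 of the 44 members stood 5 or more places apart in the orders of B6 and of the NOD mean, and 2 held the same place. In B6 the highest FPKM were those of Gsto1 (3146), Fth1 (1710), Ftl1 (1436), Gpx1 (784) and Sod1 (444), with Txn1 (423) and Prdx1 (350) next. In the NOD mean they were Fth1 (1461 ± 203, SD, n = 2), Ftl1 (1222 ± 27.5), Gpx1 (832 ± 130), Txn1 (532 ± 76.8) and Prdx1 (512 ± 69.4), followed by Gsto1 (427 ± 32.9) and Prdx6 (423 ± 7.18). The ferritin chains differed from each other by little more than the spread between the NOD libraries, and Txn1 and Prdx1, and likewise Gsto1 and Prdx6, were within it. Sod1 stood 5th of the members in B6 and 20th in NOD, where its FPKM was 85.1 ± 25.6.

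Ratios within a library do not depend on scaling. They are given for members that do like work in different places, and for pairs of subunits, chains or gene copies. The FPKM of Sod2 was 0.296 times that of Sod1 in B6 and 2.36 and 3.92 times in NOD, and that of Glrx5 was 0.470 times that of Glrx3 in B6 and 2.91 and 2.78 times in NOD. In both pairs the mitochondrial form was the lower one in B6 and the higher one in both NOD libraries. Of the transcript words of Sod1 and Glrx3, 23.1% and 45.4% also occur in another gene model, so that both ratios are uncertain. For the thioredoxin reductases the ratio of the mitochondrial to the cytosolic form was 0.213 in B6 and 0.559 and 0.635 in NOD. The thioredoxins did not share this, with Txn2 at 0.409 times Txn1 in B6 and 0.406 and 0.530 times in NOD, and Glrx2 stood at 0.169 times Glrx in B6 and 0.131 and 0.0802 times in NOD. Gstp1 stood at 3.26 times Gstp2 in B6 and 8.34 and 5.19 times in NOD, for a pair whose reads are hard to tell apart. For the ligase subunits and the ferritin chains the libraries were near each other, with Gclm at 11.9 times Gclc in B6 and 9.83 and 8.96 times in NOD, and Fth1 at 1.19 times Ftl1 in B6 and 1.29 and 1.10 times in NOD.

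**Figure D5:**
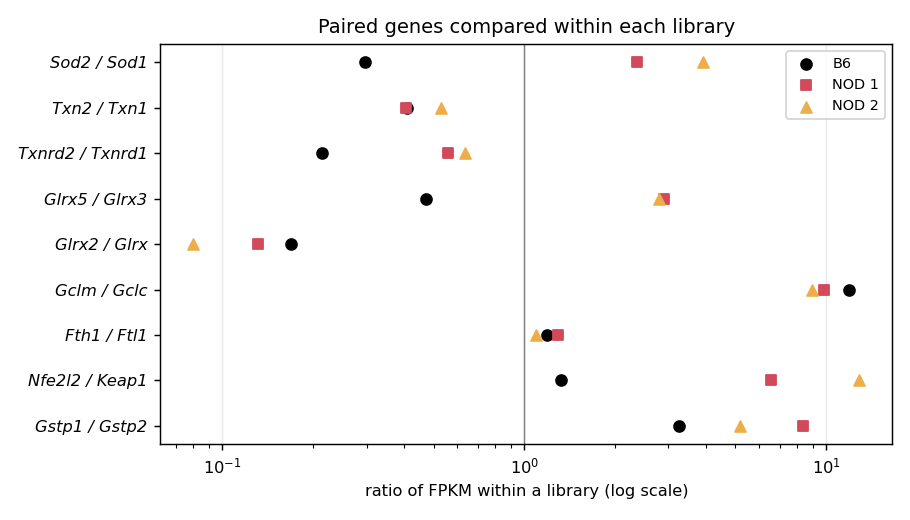
Ratio of the FPKM of 2 members within each library, on a log scale with a line at 1, for B6 (circles), NOD 1 (squares) and NOD 2 (triangles). Sod2 over Sod1 and Glrx5 over Glrx3 cross from below 1 in B6 to above 1 in both NOD libraries, whereas Fth1 over Ftl1 stays near 1.

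Grouped by where the proteins work, a grouping chosen after the values were seen and therefore not tested, the 7 members known from mitochondria (Sod2, Prdx3, Txn2, Txnrd2, Glrx2, Glrx5 and Nnt) had log2 fold changes with a median of 1.11. In this group 3 were called higher and both NOD libraries lay above B6 for all but Nnt, against 10.3% and 45.3% of all genes. Members known from mitochondria as well as other places were left out of the group and did not go 1 way, with log2 fold changes of 0.25 for Prdx5, 0.28 for Gpx1, 1.24 for Gpx4, -0.88 for Gsr and -2.20 for Sod1. The 3 members grouped under the endoplasmic reticulum (Prdx4, Gpx7 and Gpx8) lay above B6 in both NOD libraries, and 2 were called higher. Of all genes, 45.3% lay above B6 in both and 10.3% were called higher. The group leaves out Mgst3 and Hmox1, membrane proteins of the same compartment, at -0.14 and 0.59. For both of these B6 lay between the NOD libraries. The 33 other members tested had a median of -0.04, with 2 called higher and 4 lower.

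Promoter sequences from RefSeq (GRCm38.p6) were read for 38 of the 44 members and searched on both strands, from 250 bases before to 50 after each start, for TGACNNNGC, the core of the antioxidant response element that Nrf2 is known to bind. It occurred for 8 of the 38 members (21.1%), against 14.0% of 27025 genes with a promoter in the same table. Counted by promoter, since a gene can have several, it occurred in 8 of 50 promoters of members (16.0%) and in 12.4% of all 32851. The 8 were Gclm, Gstm5, Mgst1, Nfe2l2, Prdx1, Sod1, Srxn1 and Txnrd1, of which edgeR's main test called Sod1 lower in NOD and none higher. Of the 8 alternative tests, 3 called Nfe2l2 higher, 1 called Gclm higher and 4 called Txnrd1 lower, and Prdx6, which was called higher, had no promoter to search. A match is a description of letters and not of binding. The 250 bases before the start are shown for a member with higher NOD values that missed the threshold, Prdx1 (chr4:116685349-116685598, plus strand), and for the one that fell, Sod1 (chr16:90220512-90220761, plus strand), with the match in capitals, which lies on the minus strand in both.
Prdx1: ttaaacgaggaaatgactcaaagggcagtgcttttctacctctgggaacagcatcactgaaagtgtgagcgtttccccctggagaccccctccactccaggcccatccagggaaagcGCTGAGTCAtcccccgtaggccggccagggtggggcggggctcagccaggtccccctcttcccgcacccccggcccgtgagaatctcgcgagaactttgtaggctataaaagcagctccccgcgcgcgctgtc
Sod1: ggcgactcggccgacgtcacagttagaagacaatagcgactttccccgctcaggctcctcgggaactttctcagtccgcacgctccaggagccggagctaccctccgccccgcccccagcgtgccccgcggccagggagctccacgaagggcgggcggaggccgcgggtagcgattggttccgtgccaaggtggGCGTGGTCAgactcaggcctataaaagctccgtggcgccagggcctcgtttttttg

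Outside the members, 180 further genes of glutathione, thioredoxin, selenoprotein, iron and NADPH metabolism were in the table and 157 were tested. Of these, 20 were called higher in NOD and 10 lower (12.7% and 6.37%, against the 10.3% and 7.39% of all genes), and 15 and 13 with total counts only. The 20 genes of iron handling held 5 called higher and 2 lower, and the 17 of selenoproteins and selenocysteine insertion held 3 and 1. The 17 of cystine and glutathione supply, turnover and export held 3 and 3, and the 24 other peroxidases and transferases held none in either direction by edgeR. Of these 24, 7 had an unadjusted p under 0.05, against 5763 of all 14456 genes tested, and DESeq2 called 2, against 28.7% of all genes. The 24 other thioredoxin-fold and repair genes held 2 called higher and 1 lower, the 28 other regulators and targets of Nrf2 held 3 and 1, the 15 other genes of NADPH supply held 1 and 1, and the 12 of NADPH oxidases and other peroxide sources held 3 and 1.

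The largest rises among these, at a mean of at least 10 CPM, were those of Ero1l, Oxr1, Txndc12, Tfrc and Cyba. Ero1l, the oxidase of the endoplasmic reticulum that makes hydrogen peroxide as it forms disulphides, had 19 counts in B6 and 2656 and 2336 in NOD (log2 fold change 5.73, SE 0.51, adjusted p = 0.0196). Txndc12, a thioredoxin-fold protein of the same compartment, had 210 counts in B6 and 9940 and 12679 in NOD (log2 fold change 4.45, SE 0.33, adjusted p = 0.0193), and Tfrc, the transferrin receptor that brings in iron, had 221 counts against 12098 and 10506 (log2 fold change 4.38, SE 0.32, adjusted p = 0.0190). These 3 genes had few reads in B6 and high counts in each NOD library. Oxr1, a gene of oxidation resistance, had 17 counts in B6 and 669 and 1465 in NOD, and Cyba, the p22 subunit of NADPH oxidases, had 68 against 1096 and 1517, with log2 fold changes of 4.66 and 2.96 (adjusted p = 0.0303 and 0.0297).

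The largest falls were those of Aldh1l1, Cbs, Oplah, Ggt1 and Msrb1. Cbs, which starts the path from homocysteine to cysteine, had 2412 counts in B6 and 123 and 360 in NOD (log2 fold change -4.63, SE 0.66, adjusted p = 0.0242), and Ggt1, which breaks down glutathione outside the cell, had 909 counts against 422 and 288 (log2 fold change -2.65, SE 0.43, adjusted p = 0.0283). Oplah, which returns 5-oxoproline to glutamate, had 587 counts against 139 and 268 (log2 fold change -2.83, adjusted p = 0.0354). All 3 were lower in both NOD libraries, whereas Slc3a2, Ggct and Lancl1 of the same list were called higher, with log2 fold changes of 1.39, 2.28 and 1.82, and are named here after their values were seen. Aldh1l1, which makes NADPH in folate metabolism, had 627 counts against 50 and 54 (log2 fold change -4.89, adjusted p = 0.0196), and Msrb1, a selenoprotein that repairs oxidised methionine, had 915 against 267 and 558 (log2 fold change -2.46, adjusted p = 0.0426).

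The calls on the members rest on few degrees of freedom. By limma-voom and by edgeR without the filter on low counts no member was called, but neither called any gene of the table. At an unadjusted p under 0.05 they had 19 and 23 members, against 3924 of 14456 and 5568 of 16765 genes tested. DESeq2 called 15 of the 43, against 28.7% of all genes. Sod1, Gpx3, Prdx3, Glrx3 and Gsto1 were each called by 6 of the 8 alternative tests, with adjusted p of at most 0.07045 in any of them. Sod2, Gpx7, Prdx4, Glrx and Glrx5 were each called by 4 of the 8, with adjusted p of up to 0.138, and of these Sod2, Prdx4, Glrx and Glrx5 were called neither with total counts only nor with upper-quartile factors.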

How the data were processed

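Blastocyst libraries were made with SMART-Seq V4, whose 19 cycles of PCR carry no molecular identifiers, so that intervals and floors cover counting error only. Per the labels and the study's methods, the authors mapped the 50-base single-end reads with STAR (mm10), counted them on the exons of RefSeq genes with HOMER, and deposited raw counts per gene without normalization, 1 transcript per gene. The STAR version differs between the submitters' processing notes (2.2.0c) and the methods. NOD reads were mapped to the same B6 reference, and the effect of sequence differences between the strains on the counts was not tested. Per the file header both strands were counted. The spans of Gpx4, Gpx8, Prdx1, Txnrd2, Txnip and Gstm5 overlap genes on the other strand, and reads cannot be told apart where the exons overlap. Of the 50-base words of Gpx8, none also occur in another gene. Of the other columns, only the gene annotation and the listed gene length were used.

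Members and lists were chosen with earlier results of these data known. Of 24063 genes, 7298 had no count in any library. Genes kept by filterByExpr (minimum count 10) were tested with edgeR 4.0.16 (R 4.3.3) by glmQLFit, given the trended dispersion, with TMM factors 1.09 for B6 and 0.975 and 0.941 for NOD. The fit had 1 residual and 3.78 prior degrees of freedom and a median biological coefficient of variation of 0.374. P-values were adjusted by Benjamini-Hochberg over the 14456 genes tested and genes called at 0.05 and 2-fold. The script was tested on simulated data. FPKM used the listed gene length and total counts. Floors were 3 counts. Shared words of 50 bases were counted in GENCODE M21. All 44 members are named, and of the other pathway genes those called whose mean CPM was 10 or more and that had 1 direction in both NOD libraries, at most 5 per direction. Alternatives were DESeq2 1.42.0, limma-voom 3.58.1, other scalings, filters and dispersions, and leaving out each NOD library. Amino acid sequences were not analysed here.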

Additional observations from a re-analysis of the deposited data

How the results depend on the processing

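Against 7 members called higher and 4 lower, DESeq2 called 9 and 6, limma-voom and edgeR without the filter on low counts 0 and 0, upper-quartile factors 2 and 4, total counts only 1 and 6, and a filter of 1 CPM in every library 11 and 7. The last filter leaves 10112 genes to test and removes genes that are low in 1 strain. Of these 10112 genes it called 1892 higher and 1885 lower. Of all 14456 genes, the main test called 1483 and 1069, DESeq2 2315 and 1838, and upper-quartile factors 1016 and 701. Among members with under 10% shared words (30 tested, an alternative chosen after seeing the data) 2 were called lower. Their median log2 fold change of 0.42 moved to 0.28 with the 1 CPM filter, 0.24 with total counts only and 0.60 among members with few shared words. Leaving out a NOD library allows no test, and counts past 2-fold were then 13 to 15 members higher and 8 to 9 lower, with medians of 0.25 to 0.45. Of the other pathway genes (20 and 10), DESeq2 called 33 and 16, the 1 CPM filter 30 and 22, and upper-quartile factors 14 and 6. Limma-voom and edgeR without the filter called 0 and 0. At an unadjusted p under 0.05 these 2 had 53 and 66 pathway genes, against 3924 of 14456 and 5568 of 16765 genes tested. Leaving out a NOD library put 38 to 47 pathway genes past 2-fold higher and 36 lower in either case. Cat turned from 0.07 to -0.11 with total counts only, and no other member changed sign in a test. The causes were not tested. With size factors from DESeq2, 42 of the 43 members kept their side of the threshold, and with dispersions estimated within glmQLFit, chosen after seeing the data, 40 did. FPKM with the TMM-effective library size moved 34 of 85 values by more than the counting error of the B6 library or the SD of the NOD libraries and left shares within a family as they were. No paired analysis was possible because B6 has 1 library. The depth of the B6 library limits Gpx8 and Gstt1, with 2 and 0 counts there.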
